A study of Mus musculus with 9 samples.

Results

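Interferon-induced antiviral effector genes encode the proteins that a cell makes after it senses interferon and that act on viral RNA, viral entry or virus release. Of 10 such genes chosen by name, 9 were listed among the 15228 genes of the deposited table: Ifit1, Ifit2, Ifit3, Isg15, Usp18, Bst2, Rsad2, Ifitm3 and Xaf1. Rtp4 was not analysed here. RNA had been sequenced from wild-type mouse retinal cells sorted as retinal ganglion cells (RGCs), the neurons whose axons form the optic nerve, and each of the 3 groups had 3 libraries. Ctrl came from normal retinas without injury. No injection is described for Ctrl, so crush and injection cannot be told apart in ONC/Ctrl or TPEN/Ctrl. ONC came from retinas 3 d after optic nerve crush with an injection of the vehicle PBS into the eye. TPEN came from retinas 3 d after the same crush with an injection of TPEN, a membrane-permeable zinc chelator, given right after it. The methods name C57BL/6J mice of both sexes, and the sort kept CD90.2+ cells that were negative for CD48, CD15 and CD57. The sources used here do not say if separate mice gave the libraries of each group, so the p-values measure the spread between these libraries, which may be technical.

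Interferons bind receptors on the cell surface, and these activate the kinases JAK1 and TYK2. A factor that includes STAT2 and IRF9 then binds the interferon-stimulated response element (ISRE) in the promoters of target genes. The products of these genes were first known from virus infection, but the same genes respond to interferon in cells without a virus, including microglia and other cells of the injured nervous system.

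Levels were deposited as RPKM, read numbers scaled by exon length and by library size, and the library totals worked out from them lay between 19946993 and 23109754 reads. Markers of rods, the light-sensing cells, were the most abundant of the marker lists, and the group means of the 9 rod markers lay between 215 and 11500 RPKM. The RGC markers Rbpms, Pou4f1 and Slc17a6 had group means of at most 0.605 RPKM, while the neurofilament gene Nefl was at 198 to 264 RPKM, Nefm at 44.8 to 60.2, Sncg at 18.4 to 23.3 and Thy1, the gene of CD90, at 4.74 to 7.12. The 9 RGC markers listed summed to group means of 336 RPKM in Ctrl, 357 in ONC and 272 in TPEN. In bulk samples, fewer cells of a type and less RNA per cell cannot be told apart, and this holds for every level given here. Differences were tested with limma on log2(RPKM + 0.1), across the 13566 genes whose mean reached 0.5 RPKM, and a gene was called when its adjusted p was under 0.05 and its fold change at least 1.5. The added 0.1 RPKM makes log2 fold changes of low genes smaller than the ratios of their means.

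All 9 listed members had their lowest mean in Ctrl and their highest in ONC. Fitted without the filter on low genes, which Rsad2 and Xaf1 did not pass, 9 of 9 were called higher in ONC/Ctrl, where 6.19% of all 15228 genes were called higher. In TPEN/ONC, 7 of 9 were called lower, against 1.85% of all genes. In TPEN/Ctrl, 6 of 9 were called higher, against 4.5% of all genes. The members and the further lists were chosen with earlier results of these data known. The shares over all genes are therefore given for scale and do not test the counts. Without 1 library, 8 or 9 of 9 were called higher in ONC/Ctrl and 6 in TPEN/Ctrl, except that 7 were called in TPEN/Ctrl without Ctrl replicate 2. The count in TPEN/ONC changed more. It fell from 7 to 3 without ONC replicate 2, ONC replicate 3 or TPEN replicate 3. It was 5 without ONC replicate 1, TPEN replicate 1 or TPEN replicate 2. Such a fit keeps 2 libraries of a group and has less power, so a lost call need not reflect the library left out. No member's fold change in TPEN/ONC reversed in these fits. With the filter, the shares called among the 13566 genes tested were 4.58% higher and 0.752% lower in ONC/Ctrl, 0.818% higher and 1.21% lower in TPEN/ONC, and 3.45% higher in TPEN/Ctrl. In limma's test against a change of 1.5-fold itself, with the filter, 6 members passed in ONC/Ctrl, 1 (Ifit3) in TPEN/Ctrl and 0 in TPEN/ONC, where 4 members passed 0.05 before adjustment and voom without that limit called 5. No member was called lower in ONC/Ctrl or higher in TPEN/ONC in either fit. Of the 9 members, 9 had every ONC library above every Ctrl library, a pattern that 21.3% of all listed genes shared. For 7 members, every TPEN library was below every ONC library (15.6% of all listed genes), and for 7 members every TPEN library was above every Ctrl library (19% of all listed genes). TPEN/ONC and ONC/Ctrl share the ONC libraries, and TPEN/Ctrl shares its libraries with both, so the comparisons are not independent of each other. Ifit1, Usp18, Isg15, Bst2, Ifitm3 and Ifit2 lay in the lower part of the table, with ranks by mean RPKM from 10072 to 13344 of 15228, and Ifit3 stood apart from them at rank 2897.

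The promoters of most members hold the ISRE core. The members were chosen as interferon-induced genes, and the ISRE is part of that response, so its presence is not an independent result. The stretches printed here run from 180 to 31 bases before the RefSeq transcription start (GRCm38.p6), with matches to the ISRE core in capitals. The core searched was GAAANNGAAA on either strand, where it reads TTTCNNTTTC on the other one.
Isg15, chr4:156200849-156200998, minus strand: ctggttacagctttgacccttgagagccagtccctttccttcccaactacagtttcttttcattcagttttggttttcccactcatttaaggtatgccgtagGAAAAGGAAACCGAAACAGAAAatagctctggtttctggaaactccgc
Ifit3, chr19:34583349-34583498, plus strand: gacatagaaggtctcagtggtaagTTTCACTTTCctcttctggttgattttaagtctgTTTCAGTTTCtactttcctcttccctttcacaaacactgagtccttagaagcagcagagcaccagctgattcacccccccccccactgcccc
Ifit1, chr19:34640709-34640858, plus strand: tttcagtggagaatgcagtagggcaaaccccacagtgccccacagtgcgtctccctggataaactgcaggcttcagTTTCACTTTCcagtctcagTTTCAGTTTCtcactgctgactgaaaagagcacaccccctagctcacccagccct
Bst2, chr8:71537503-71537652, minus strand: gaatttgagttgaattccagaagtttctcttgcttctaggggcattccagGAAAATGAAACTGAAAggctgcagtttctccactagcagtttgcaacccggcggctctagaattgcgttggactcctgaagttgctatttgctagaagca
Rsad2, chr12:26456483-26456632, minus strand: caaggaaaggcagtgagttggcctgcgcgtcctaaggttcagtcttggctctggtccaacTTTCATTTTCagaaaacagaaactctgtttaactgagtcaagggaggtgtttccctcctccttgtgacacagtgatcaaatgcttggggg
Ifit2, chr19:34550514-34550663, plus strand: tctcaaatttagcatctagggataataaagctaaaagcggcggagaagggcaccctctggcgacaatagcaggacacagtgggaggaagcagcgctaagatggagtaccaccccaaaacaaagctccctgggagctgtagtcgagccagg
Isg15 carried 3 overlapping matches, the first starting 78 bases before the transcription start. Ifit3 and Ifit1 carried 2 matches each, at 156 and 122 bases and at 104 and 85 bases before the start, and the matches of both genes have the letters TTTCACTTTC and TTTCAGTTTC. The 2 matches of Bst2 overlap each other, and Rsad2 had 1 match. Ifit2 is shown because its window held none. Over whole windows of 300 bases, 250 before and 50 after the start, 6 of the 8 members with an entry held the core. These were 6 of their 9 windows, against 3.44% of all 32851 promoters in the RefSeq table. Both matches of Ifitm3 lie downstream of its RefSeq start, at 2 and 19 bases after it. The windows of Ifit2 and Xaf1 held no match, and Usp18 and Rtp4 had no entry. The gamma-activated site (TTCNNNGAA), a motif of the response to type II interferon, was found in the windows of 3 members (Ifitm3, Bst2 and Ifit2) and in 8.3% of all promoters, and in Bst2 it overlaps the first ISRE match. A match is a run of letters and not a measured binding site.

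The IFIT proteins bind viral RNA through repeated helical motifs, and their genes lie side by side on mouse chromosome 19. Ifit3 (34583531 to 34588731, GRCm38) had the highest level of all members in every library. Its level was 4.29, 3.84 and 4.34 RPKM in the Ctrl libraries, 28.5, 27.7 and 28.2 in ONC and 15.4, 16.6 and 14.9 in TPEN. The 3 groups were far apart compared with the spread inside each of them, and TPEN lay between the others. The log2 fold change of Ifit3 was 2.73 in ONC/Ctrl (limma adjusted p = 3.3e-09, standard error 0.06), -0.85 in TPEN/ONC (adjusted p = 4.0e-05, standard error 0.06) and 1.89 in TPEN/Ctrl (adjusted p = 5.9e-08). These calls held without any 1 of the 9 libraries. The reads of Ifit3 are uncertain, because the transcript of its neighbour Ifit3b matches it at 97.8% over 1700 of its 1745 bases and how the authors assigned shared reads is not given in the sources used here. Ifit3b moved with Ifit3, from a mean of 2.26 RPKM in Ctrl to 12.5 in ONC and 6.68 in TPEN, and its log2 fold change was 2.41 in ONC/Ctrl and -0.90 when TPEN was compared with ONC (limma adjusted p = 5.5e-07 and 0.00164, standard error 0.11). The ratio of Ifit3 to Ifit3b was 1.84 in Ctrl, 2.26 in ONC and 2.34 in TPEN, so the sum of the pair followed the same course.

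Ifit1 (34640871 to 34650009) had few reads in Ctrl, with 6, 14 and 10 per library. Its level was 0.101, 0.228 and 0.188 RPKM in the Ctrl libraries, 1.38, 1.38 and 1.57 in ONC and 0.527, 0.390 and 0.793 in TPEN. No group overlapped another, and the TPEN libraries were the most scattered. The log2 fold change was 2.53 in ONC/Ctrl (limma adjusted p = 8.8e-05, standard error 0.25) and 1.29 in TPEN/Ctrl (adjusted p = 0.00816). In TPEN/ONC it was -1.24 (adjusted p = 0.0166), a call that was lost without any single ONC library, and likewise without TPEN replicate 1 or 2, where the adjusted p was between 0.0524 and 0.0643.

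Ifit2 (34550694 to 34576419) stayed closer to its ONC level in TPEN than Ifit1 and Ifit3 did. Its level was 0.579, 0.727 and 0.406 RPKM in the Ctrl libraries, 1.68, 1.53 and 2.20 in ONC and 1.55, 1.49 and 1.48 in TPEN. Every ONC and TPEN library was above every Ctrl library, while ONC and TPEN overlapped. Ifit2 rose in ONC/Ctrl (log2 fold change 1.52, limma adjusted p = 4.2e-04, standard error 0.19) and in TPEN/Ctrl (1.29, adjusted p = 0.00168). Its log2 fold change in TPEN/ONC was -0.23 (adjusted p = 0.543), with a 95% confidence interval of -0.66 to 0.20. That interval did not overlap the one of Ifit3 for the same comparison, -0.98 to -0.71.

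**Figure D1:**
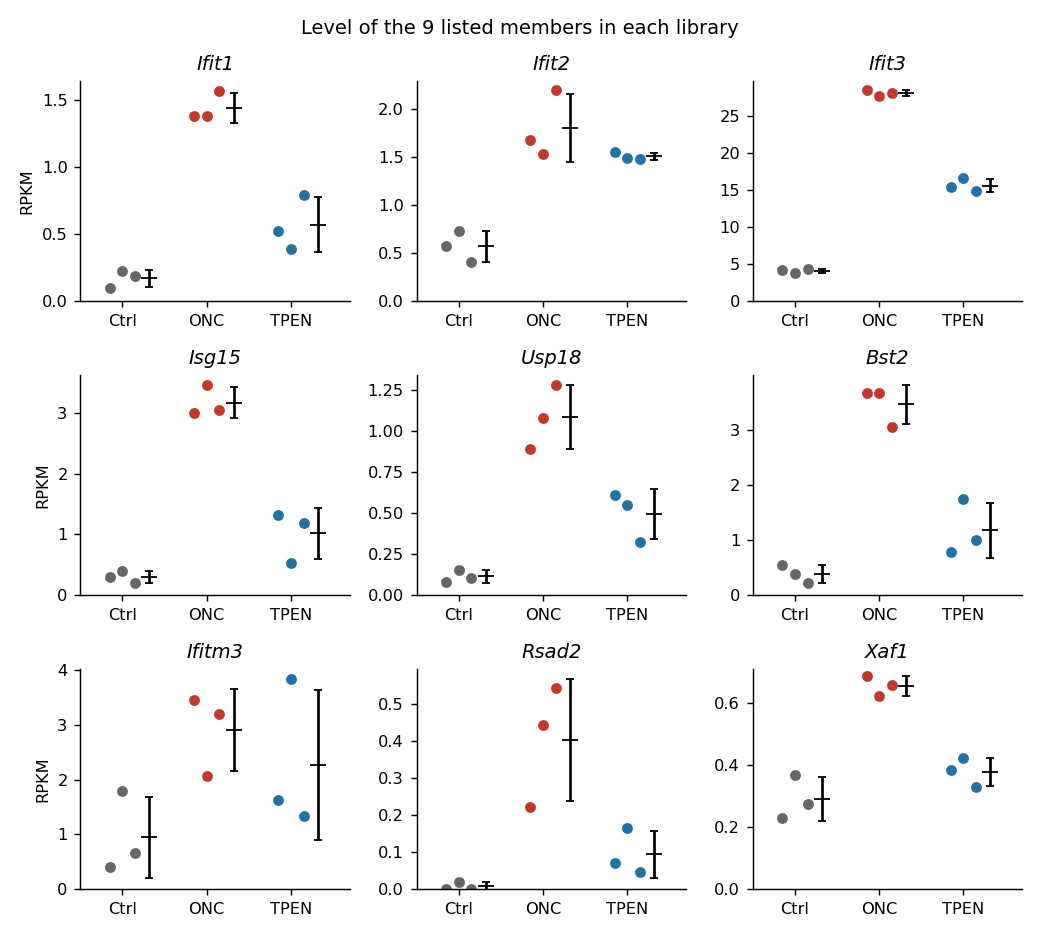
Level (RPKM) of the 9 listed members in the Ctrl, ONC and TPEN libraries. Each point is 1 library, and the bar to the right of each group is the mean ± SD of its 3 libraries, on an axis that starts at 0 and has its own range for each gene. Every ONC library lies above every Ctrl library for all 9 genes, and ONC and TPEN overlap for Ifit2 and Ifitm3.

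ISG15 is a ubiquitin-like protein that is joined to other proteins after interferon, and USP18 removes it and also dampens signalling at the type I receptor. Isg15 (chromosome 4, 156199424 to 156200818) was at 0.295, 0.401 and 0.198 RPKM in the Ctrl libraries, 2.99, 3.46 and 3.05 in ONC and 1.32, 0.536 and 1.19 in TPEN. The groups did not overlap, and TPEN replicate 2 was the nearest of the TPEN libraries to Ctrl. The log2 fold change of Isg15, 3.07 in ONC/Ctrl (limma adjusted p = 7.5e-05, standard error 0.30), was the largest of the members tested. It was -1.63 in TPEN/ONC (adjusted p = 0.0109) and 1.44 in TPEN/Ctrl (adjusted p = 0.0111), and all 3 calls held without any 1 library. These levels rest on 3 to 7 reads per Ctrl library and 9 to 20 per TPEN library, and a gene that was not listed, AC151275.1, matches the transcript of Isg15 at 95.2% over 482 of its 756 bases.

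Usp18 (chromosome 6, 121245906 to 121270917) followed the same order of groups. Its level was 0.0799, 0.155 and 0.107 RPKM in the Ctrl libraries, 0.889, 1.08 and 1.28 in ONC and 0.610, 0.549 and 0.323 in TPEN, with no overlap between any groups. It rose in ONC/Ctrl (log2 fold change 2.47, limma adjusted p = 8.0e-05, standard error 0.24) and in TPEN/Ctrl (1.45, adjusted p = 0.00336). Its decrease in TPEN/ONC, -1.01 (adjusted p = 0.0341), was lost without any single ONC library and without TPEN replicate 2 or 3 (adjusted p between 0.0599 and 0.117). The listed gene Gm44148 lies on the other strand and shares 124 exon bases with Usp18, and whether strand was used in counting is not given in the sources used here.

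The other genes of ISG15 conjugation moved less evenly. Ube2l6, the conjugating enzyme, rose from a mean of 1.24 RPKM in Ctrl to 4.35 in ONC and was at 2.17 in TPEN, and its log2 fold change was 1.74 in ONC/Ctrl and -0.97 in the comparison of TPEN with ONC (limma adjusted p = 1.6e-05 and 0.00275, standard error 0.13). Herc6, the mouse ligase, was under the filter at 0.103, 0.762 and 0.451 RPKM in Ctrl, ONC and TPEN, and without the filter it rose in ONC/Ctrl (2.09, limma adjusted p = 8.4e-06) and fell in TPEN/ONC (-0.65, adjusted p = 0.0282). Herc6 shares 1269 of its 9292 exon bases with Gm45193 on the same strand, so its reads are uncertain. Uba7, the activating enzyme, was also under the filter, and without it was called higher in ONC/Ctrl alone (0.88, limma adjusted p = 0.0424). Trim25, a further ligase for ISG15, had a log2 fold change of 0.45 in ONC/Ctrl, short of the 1.5-fold limit. Of these 4 genes, 3 thus rose in ONC/Ctrl and 2 fell in TPEN/ONC without the filter.

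Bst2 and Ifitm3 encode membrane proteins. BST2, or tetherin, holds budding virus particles at the cell surface. Bst2 (chromosome 8, 71534255 to 71537456) was at 0.543, 0.383 and 0.221 RPKM in the Ctrl libraries, 3.66, 3.66 and 3.04 in ONC and 0.776, 1.74 and 0.999 in TPEN. The 3 groups did not overlap. Its log2 fold change was 2.93 in ONC/Ctrl (limma adjusted p = 1.1e-04, standard error 0.30), -1.55 in TPEN/ONC (adjusted p = 0.0146) and 1.38 in TPEN/Ctrl (adjusted p = 0.0142). The decrease in TPEN/ONC was lost without ONC replicate 1, ONC replicate 2 or TPEN replicate 3 (adjusted p between 0.0560 and 0.0576).

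IFITM3 blocks the fusion of viruses with endosomes. Ifitm3 (chromosome 7, 141009586 to 141010770) was the most scattered of the members, at 0.395, 1.79 and 0.661 RPKM in the Ctrl libraries, 3.46, 2.06 and 3.21 in ONC and 1.62, 3.85 and 1.33 in TPEN. Replicate 2 was the highest library of both Ctrl and TPEN and the lowest of ONC, so TPEN overlapped both other groups. The log2 fold change was 1.72 in ONC/Ctrl (limma adjusted p = 0.0399, standard error 0.50). This call was lost without Ctrl replicate 1 or 3, any single library of ONC, or TPEN replicate 1 (adjusted p between 0.0519 and 0.125). In TPEN/ONC the change was -0.46 (adjusted p = 0.652, 95% confidence interval -1.58 to 0.66) and in TPEN/Ctrl 1.26 (adjusted p = 0.137). Without Ctrl replicate 2, Ifitm3 was called higher in TPEN/Ctrl (1.80, adjusted p = 0.0302). Its counts were 6 to 58 reads per library, and a gene that was not listed, Gm6885, matches it at 91.6% over 356 of 678 bases. Ifitm7, a listed paralog, had a log2 fold change of -0.11 in ONC/Ctrl and -0.28 in TPEN/ONC (limma adjusted p = 0.676 and 0.334), and Ifitm10, under the filter, was at 0.203 to 0.244 RPKM in all groups.

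Rsad2 and Xaf1 had means under 0.5 RPKM and were fitted without the filter. RSAD2, or viperin, is a radical enzyme whose product stops viral RNA synthesis. Rsad2 (chromosome 12, 26442753 to 26456452) had 0, 2 and 0 reads in the Ctrl libraries, 22, 44 and 54 in ONC and 6, 16 and 4 in TPEN. The groups did not overlap, and against a Ctrl floor of 3 reads per library the mean ONC level was at least 12.6-fold higher. The increase was called (limma adjusted p = 5.9e-04), but the size of its fitted fold change depends on the added 0.1 RPKM. Its fitted log2 fold change was -1.36 in TPEN/ONC (limma adjusted p = 0.0221, standard error 0.30), and this was lost without ONC replicate 2, ONC replicate 3, TPEN replicate 1 or TPEN replicate 3 (adjusted p between 0.0704 and 0.0835). In TPEN/Ctrl the adjusted p was 0.103. Cmpk2, its neighbour at a distance of 12751 bases and itself an interferon-induced antiviral gene, had means of 0.550, 1.26 and 0.933 RPKM in Ctrl, ONC and TPEN and was called in ONC/Ctrl (1.10, adjusted p = 0.0324) but not in TPEN/ONC (-0.38, adjusted p = 0.519). Whether the neighbours differed from each other in TPEN/ONC was not tested.

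XAF1 binds the apoptosis inhibitor XIAP. Xaf1 (chromosome 11, 72301629 to 72313733) was at 0.228, 0.369 and 0.276 RPKM in the Ctrl libraries, 0.687, 0.622 and 0.659 in ONC and 0.384, 0.422 and 0.331 in TPEN. The ONC libraries stood above all others, and TPEN overlapped Ctrl. Its log2 fold change, 0.97 in ONC/Ctrl (limma adjusted p = 0.00241, standard error 0.16), was the smallest of the members. In TPEN/ONC it was -0.66 (adjusted p = 0.0388), which was lost without any single library of ONC or TPEN (adjusted p between 0.0642 and 0.127), and in TPEN/Ctrl it was 0.30 (adjusted p = 0.276, 95% confidence interval -0.06 to 0.67). Short stretches of the Xaf1 transcript match 411 other genes, and how reads from them were assigned is not given in the sources used here. Rtp3, a listed relative of Rtp4, had means of 0.654, 1.19 and 0.664 RPKM in Ctrl, ONC and TPEN. It was called higher in ONC/Ctrl (0.77, limma adjusted p = 0.00138) and lower in TPEN/ONC (-0.75, limma adjusted p = 0.00518). Of its 3057 exon bases, 577 are shared with 1700061E17Rik and 623 with Gm10030, both on the other strand.

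**Figure D2:**
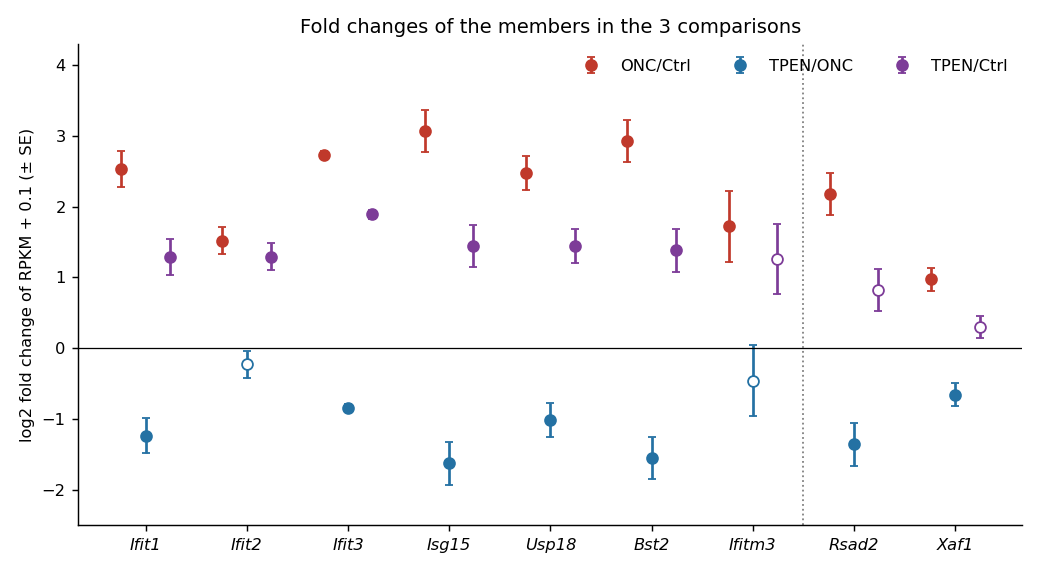
Log2 fold change (on the RPKM + 0.1 scale, ± standard error) of each member in ONC/Ctrl, TPEN/ONC and TPEN/Ctrl. Filled points were called and open points were not, and the genes to the right of the dotted line were fitted without the filter on low genes. All 9 points of ONC/Ctrl are filled, from 0.97 (Xaf1) to 3.07 (Isg15), and those of Ifit2 and Ifitm3 in TPEN/ONC are open.

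The mean share of the rise that a member kept when TPEN was given ranged from 22.1% (Rsad2) to 76.1% (Ifit2). Differences in this share between members were not tested. The share kept is the distance of a TPEN library above the Ctrl mean, divided by the distance between the ONC and Ctrl means in RPKM. Ifit2 kept 76.1% ± 3.26 of its rise and Ifit3 47.8% ± 3.76 (SD, n = 3 libraries). These SDs cover the TPEN libraries alone, and the mean share of Ifit2 was 72.6%, 68.5% and 90.5% without ONC replicates 1, 2 and 3, against 47.4% to 48.2% for Ifit3. All TPEN libraries of Ifit2, between 73.9% and 79.8%, were above all those of Ifit3, between 44.7% and 52.0%. The means of Rsad2 (22.1%), Xaf1 (24.2%), Isg15 (25.1%), Bst2 (25.7%), Ifit1 (31.3%) and Usp18 (39.3%) were lower than that of Ifit3. With SDs of 12.5 to 16.5 percentage points, the libraries of these genes overlapped each other, and those of Ifit1 and Usp18 also overlapped Ifit3. All libraries of Rsad2, Xaf1, Isg15 and Bst2 were below all those of Ifit3, for Bst2 by little (44.3% against 44.7%). The share of Ifitm3, 67.3% ± 70.2, ranged from 19.5% to 148% and places it nowhere in the order. The order is given on the RPKM scale, and on the log2 scale the shares of Isg15, Bst2, Ifit1, Usp18, Ifit3 and Ifit2 were higher and in the same order, at 46.9%, 47.2%, 50.8%, 58.9%, 69.0% and 85.0%. Rsad2 and Xaf1 changed places on that scale, at 37.6% and 31.5%, and Ifitm3 was at 73.2%.

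**Figure D3:**
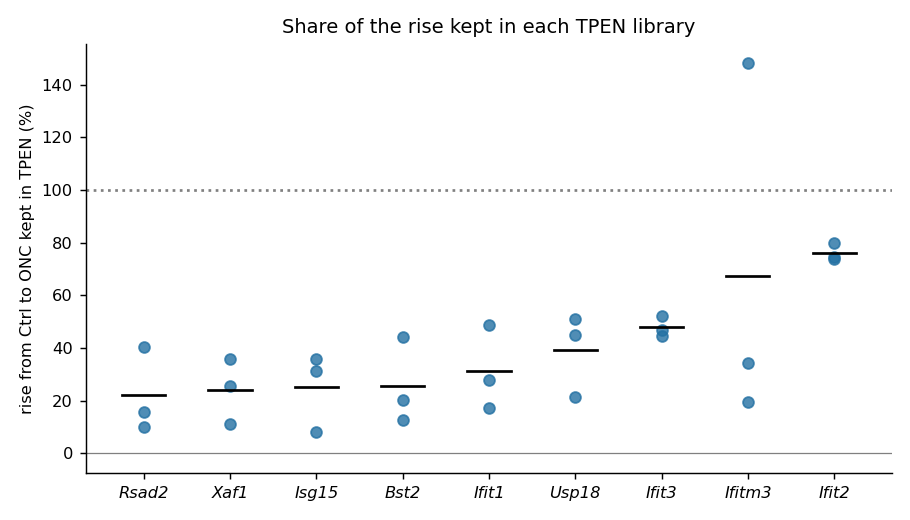
Share of the rise from Ctrl to ONC (in RPKM, as a percentage) that remained in each TPEN library, with a point per library and a line at the mean of 3. A value of 100% (dotted line) is the ONC mean and 0% the Ctrl mean. Ifit2 (73.9% to 79.8%) and Ifit3 (44.7% to 52.0%) form tight sets that do not overlap, and Ifitm3 spreads from 19.5% to 148%.

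Each of the 8 other members was set against Ifit3 within each library, on the log2 scale, so that the Ctrl libraries do not enter. The ratios in ONC and TPEN were compared with an exact test. With 3 libraries against 3, its smallest possible p is 0.1, so it could call no member, and the ratios are given as a description. The exact p was 0.1 for Ifit2, Isg15, Bst2 and Xaf1 and 0.2 to 0.6 for the others. After Benjamini-Hochberg adjustment over the 8 members, the exact p was 0.2 to 0.6. Ifit3 was chosen as reference after the values were seen, because it had the most reads. The log2 ratio of Ifit2 to Ifit3 was -4.01, -4.09 and -3.63 in ONC and -3.23, -3.40 and -3.24 in TPEN, a difference of 0.62 with no overlap. Xaf1 was also higher relative to Ifit3 in all TPEN libraries, by 0.19, but this depends on the added 0.1 RPKM, which shrinks the fall of a low gene. In RPKM alone, the TPEN mean was 0.578 times the ONC mean for Xaf1 and 0.555 times for Ifit3. Isg15 and Bst2 were lower relative to Ifit3 in all TPEN libraries, with differences of -0.78 and -0.70. The ratios of the other 4 members overlapped between the groups. The ratio and the share kept did not give the same order for Xaf1. It was higher than Ifit3 by the ratio with 0.1 RPKM added and lower by the share kept.

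Most other interferon-induced antiviral genes rose in ONC/Ctrl. A list of 54 had 42 in the table, and without the filter 35 of the 42 were called higher in ONC/Ctrl, 17 lower in TPEN/ONC and 25 higher in TPEN/Ctrl, with none called in the opposite direction. The median log2 fold changes of the 42 genes were 1.64, -0.67 and 0.89, against 0.02, -0.01 and 0.02 for all 15228 genes in that fit. Oasl1 and Sp100, with at most 2 reads in any Ctrl library, were at least 7.9-fold and 17-fold higher in ONC against the floor of 3 reads. With the filter 22 genes were tested, and 16 were called higher in ONC/Ctrl, 8 lower in TPEN/ONC and 13 higher in TPEN/Ctrl. The genes named next are from that fit. In ONC/Ctrl the change was largest for Slfn2, a Schlafen family gene, with means of 0.0399, 2.93 and 1.11 RPKM in Ctrl, ONC and TPEN (log2 fold change 4.54, limma adjusted p = 1.1e-05, standard error 0.33). Ifi204, a sensor of foreign DNA, followed with 3.86, Mx1, a dynamin-like GTPase that traps viral particles, with 3.05, and Epsti1 with 2.60. In TPEN/ONC the largest decreases were those of Epsti1 (-1.63), Ifi204 (-1.52), Slfn2 (-1.38) and Cd274 (-1.31), the gene of the checkpoint ligand PD-L1. Mx1 was not called in TPEN/ONC (-0.64, adjusted p = 0.138) and was still 2.41 higher in TPEN/Ctrl on the log2 scale. Samhd1, Isg20, Pml, Tdrd7 and Plscr1 were called in no comparison, with log2 fold changes from -0.18 to 0.33 in ONC/Ctrl, and Daxx, at 0.41, was short of the 1.5-fold limit.

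Upstream of the members, 16 genes of interferon receptors and signalling were tested. The ligand genes Ifnb1, Ifna4 and Ifng and the inhibitor gene Socs1 were not analysed here. In ONC/Ctrl, 6 of the 16 were called higher and none lower, with a median log2 fold change of 0.34. The type I receptor chains differed: Ifnar2 rose from 0.347 to 1.29 RPKM (log2 fold change 1.65, limma adjusted p = 1.2e-04, standard error 0.17), while Ifnar1 went from 4.07 to 4.38 RPKM (0.11, adjusted p = 0.354). The kinase genes Jak1, Jak2 and Tyk2 were called in no comparison. Of the parts of the factor that binds the ISRE, Irf9 rose from 3.53 to 7.51 RPKM (1.07, standard error 0.07, adjusted p = 4.9e-06), while Stat2 (0.54) was short of the 1.5-fold limit. The largest increases were those of Irf8, a factor of myeloid cells (2.67), and Socs3, an inhibitor of cytokine signalling (1.92), with Irf1 at 1.41. In TPEN/ONC, Irf9 (-0.62, standard error 0.07, adjusted p = 8.8e-04) and Ifnar2 (-0.65, adjusted p = 0.0498) were the 2 genes of the 16 called lower, and 4 were called higher in TPEN/Ctrl.

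**Figure D4:**
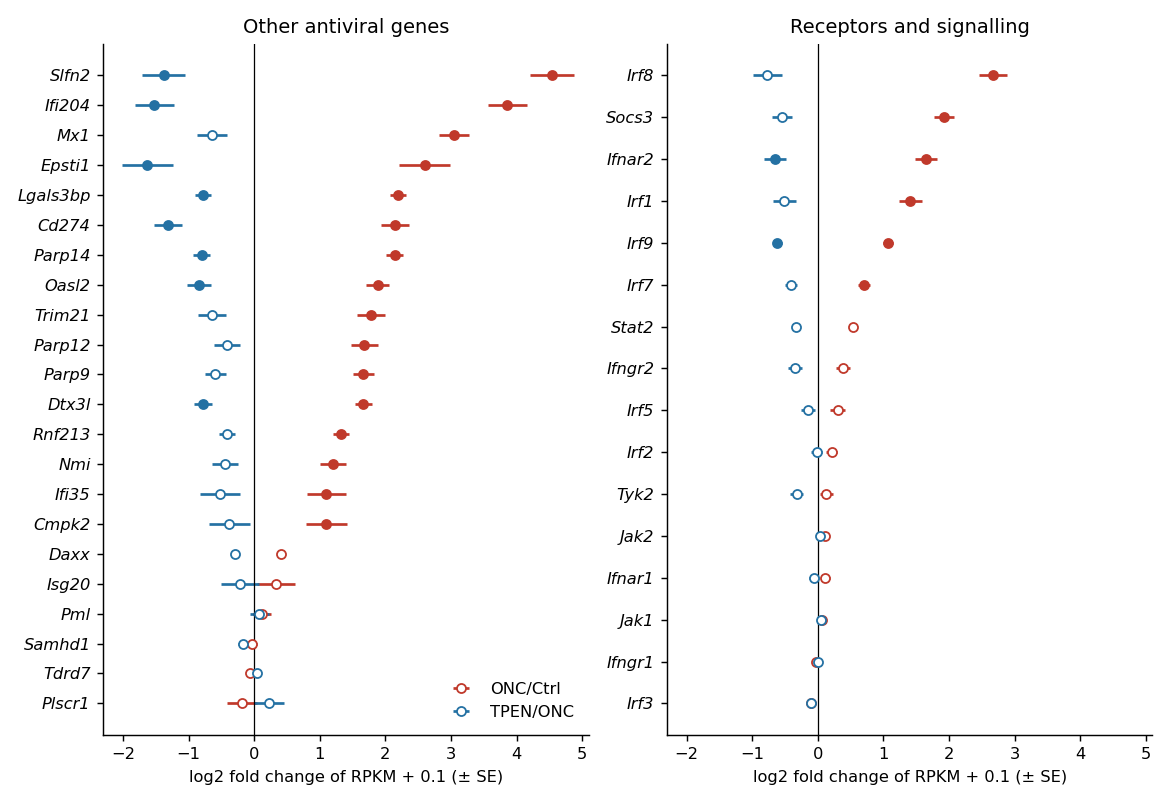
Log2 fold change (on the RPKM + 0.1 scale, ± standard error) in ONC/Ctrl (red) and TPEN/ONC (blue) of the other antiviral genes tested (left, 22 genes) and of the receptor and signalling genes tested (right, 16 genes). Filled points were called. On the left 16 red points are filled, up to 4.54 (Slfn2), and 8 blue ones; on the right 6 red points and 2 blue ones (Ifnar2 and Irf9).

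The genes whose course over the 9 libraries was most like that of the members were named by the correlation of their log2(RPKM + 0.1) with the mean of the 7 members tested, as a description. This mean was lowest in the Ctrl libraries (-1.48 to -0.96 around its centre), intermediate in TPEN (0.07 to 0.23) and highest in ONC (1.07 to 1.22). Outside the members and above a mean level of 1 RPKM, high Pearson correlations were those of Lrrc2 and Abcf1 (0.996), Gnai2 (0.994), Eif2ak2 and Arhgdia (0.992), Cd68 (0.991) and Phlpp2 (0.990). The members themselves reached 0.821 (Ifitm3) to 0.981 (Usp18). Eif2ak2, the gene of the interferon-induced kinase PKR, had means of 1.34, 5.58 and 3.14 RPKM in Ctrl, ONC and TPEN, and Cd68, a macrophage gene, 0.323, 3.46 and 1.44 RPKM. The libraries of a group share their treatment, so such a correlation mostly restates the order of the 3 groups, and the change of Abcf1, from 203 to 238 and 222 RPKM, was far smaller than that of any member.

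Markers of microglia and macrophages moved with the members. Of 19 such markers, 16 were listed and 14 tested, and all 14 were called higher in ONC/Ctrl and in TPEN/Ctrl and 7 lower in TPEN/ONC. The summed level of the 16 listed was 10.4 to 10.5 RPKM in Ctrl, 79.1 to 83.4 in ONC and 39.8 to 41.8 in TPEN. The summed level of the 9 listed members was 6.39 to 7.91 RPKM in Ctrl, 42.0 to 43.8 in ONC and 21.4 to 25.8 in TPEN, with Ifit3 as its largest part. The ratio of means was 7.76 for the markers and 6.21 for the members in ONC/Ctrl, and 0.501 and 0.537 in TPEN/ONC. Among single markers, Itgam had log2 fold changes of 3.68 and -1.32, Aif1 2.59 and -1.23, and Cx3cr1 2.52 and -0.47, the last not called in TPEN/ONC. No listed marker had a group mean of 0, the sort had left out cells with CD48, a surface protein of blood leukocytes, and their part in the members' changes was not tested. Of the neutrophil markers 1 of 9 was listed, Csf3r, with means of 0.18, 1.04 and 0.36 RPKM in Ctrl, ONC and TPEN, and none of 10 T and NK cell markers was analysed here. Of 3 astrocyte markers tested, 2 were called higher in ONC/Ctrl, 2 higher in TPEN/Ctrl and 1 lower in TPEN/ONC. Gfap had log2 fold changes of 2.95 in ONC/Ctrl and -0.62 in TPEN/ONC. Of 8 Müller glia markers, Apoe and Vim were called higher in ONC/Ctrl. In TPEN/ONC 1 Müller glia marker was called lower, and in TPEN/Ctrl 1 was called higher and 1 lower. None of the 4 endothelial and pericyte markers tested was called. The parts of these cells in the members' changes were not tested either. Of the 6 RGC markers tested, Stmn2 was called, higher in ONC/Ctrl (0.77). Without the filter, Pou4f1 was also called lower in ONC/Ctrl (-1.30, adjusted p = 0.0108) and Rbpms lower in TPEN/Ctrl (-0.77, adjusted p = 0.0333). The 9 rod markers were called in no comparison, with a summed level in ONC of 0.875 times that in Ctrl. In TPEN/ONC, the ratio of summed markers was 0.761 for RGCs, 0.788 for Müller glia and 0.675 for astrocytes. It was 1.06 for rods and 1.07 for endothelial cells and pericytes. The part of these shifts in the members' changes was not tested.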

How the data were processed

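RNA from sorted retinal cells was sequenced by the authors with a stranded mRNA kit that carries unique molecular identifiers. Per the labels and methods, reads were trimmed with Trimmomatic 0.36, as named in the submitters' processing notes, mapped to GRCm38/mm10 with STAR, and compared with edgeR. The deposited table gives RPKM per gene and library, beside fold changes and p-values of the authors' own comparisons, which were not used. The counting program, the annotation, strand use and the treatment of shared reads or identifiers are not given in the sources used here.

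Levels were fitted with limma 3.58.1 (R 4.3.3; eBayes with trend) on log2(RPKM + 0.1), with 1 coefficient for each of the 3 groups of 3 libraries, after a filter (mean over the 9 libraries not below 0.5 RPKM) that left 13566 of 15228 genes. An alternative without the filter fitted all 15228. Benjamini-Hochberg adjustment covered all genes tested, and genes were called at 0.05 with a 1.5-fold change or more. RPKM multiplied by gene length gave whole reads for every value (tolerance 0.001), and these reads gave the depths, the floor of 3 reads and the voom alternative. Floors cover counting error only. The limma fit was tested on simulated data for ONC/Ctrl alone, and the other steps were not tested in this way. The simulated spread beyond counting error was the same for all genes and smaller than that of scattered members such as Ifitm3.

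The members and lists were chosen with earlier results of these data known. All members were named. Of each further list, up to 4 called genes per comparison with the largest log2 fold change and no overlap were named, with all genes of ISG15 conjugation, listed paralogs and the 8 most similar genes. Of these lists, 1 signalling gene and 1 of the most similar genes are not reported here. Genes named although they were not called, and the marker genes picked as examples, were chosen after their values were seen. Near copies were found with blastn against GENCODE M21 transcripts. In the labels, replicates share only a number across groups.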

Additional observations from a re-analysis of the deposited data

How the results depend on the processing

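The 7 members that passed the filter kept their direction under each alternative run for them: quantile normalization, no filter, a minimum mean of 1 RPKM (not met by Ifit1 and Usp18), a pseudocount of 1 RPKM, a fit of the 6 libraries of the groups compared, a replicate block, voom on whole reads, a test against 1.5-fold and leaving out each library. Rsad2 and Xaf1 were fitted without the filter alone and kept their direction without each library. No filter, the minimum mean, the fit of 6 libraries, the replicate block and the test against 1.5-fold leave the log2 fold change itself unchanged. So does leaving out a library of the group that is not compared. These settings could change the calls but not the direction. The number of members called lower in TPEN/ONC, 5 with the filter, was 3 with a minimum mean of 1 RPKM (which leaves 5 members tested), and 0 under a test against 1.5-fold, while voom called 5. Without 1 library it ranged from 2 to 5. It was 2 without ONC replicate 1 or 2. In TPEN/Ctrl, 6 members were called higher and 1 (Ifit3) in the test against 1.5-fold, and without 1 library 6 to 7. With a pseudocount of 1 RPKM it was 4, Ifit1 and Usp18 (0.42 each, on the log2 scale) falling short of 1.5-fold, and 4 fell in TPEN/ONC, where Usp18 (-0.48) did so too. In ONC/Ctrl 7 were called, and 6 to 7 without 1 library. Leaving out single libraries in the fit without the filter was added after seeing the data.

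With the replicate number as a block, 7 members were called higher in ONC/Ctrl, 4 lower in TPEN/ONC and 6 higher in TPEN/Ctrl. The member lost was Usp18 (adjusted p = 0.0693). No pairing of the libraries by number was seen, though these correlations cannot exclude one. Same-numbered libraries deviated together with correlations of -0.0623 to 0.0268, and those with other numbers with -0.0375 to 0.0511.

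The further antiviral genes called rested on the filter and on the pseudocount. With a pseudocount of 1 RPKM, 5 were called lower in TPEN/ONC in place of 8 and 7 higher in TPEN/Ctrl in place of 13, since the added value shrinks the fold changes of low genes. Voom called Ifitm3 higher in TPEN/Ctrl (adjusted p = 0.0440, against 0.137). Depth limits the low members: Isg15, Bst2, Ifit1, Usp18 and Rsad2 had at most 14 reads in each Ctrl library.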
